A study of Avicennia germinans with 18 samples.

Results

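The mangrove tree Avicennia germinans was sampled as field-grown seedlings from an arid and a humid forest, and 150 of its transcripts were chosen for a higher level in arid than in humid stems. They came from the 29854 transcripts with the prefix Ag_ in a table of 47821. Levels are in CPM, the counts per 1 M reads of a library, with no scaling beyond the library total. The 100 transcripts that gained most CPM in arid stems on average were left out. So were 452 whose arid libraries all lay above all humid libraries in both leaf and root, 28 of which were among the 100. Of the 29330 left, the 150 with the highest score were taken. The score is the log2 of the lowest arid stem level over the highest humid stem level, with 0.5 CPM added to each. The stem values therefore chose the members, and stem levels are given as a description, with no test.

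The groups were arid leaves, humid leaves, arid stems, humid stems, arid roots and humid roots, with 3 libraries each. Leaves, stems and roots came from the same 3 seedlings per forest, per the series' design text. The forests differed in freshwater supply, salinity, sunlight and temperature, and all seedlings spent 72 hours in pots of mangrove soil, shaded and watered, before sampling. Each forest is 1 site, so its climate cannot be told apart from any other property of the site or of its trees. Library totals ranged from 3.07 M to 23.7 M reads, from 12.0 M to 16.7 M in arid stems and from 6.11 M to 12.9 M in humid stems.

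Avicennia germinans takes up saline water and secretes salt through glands on its leaves. Its stem carries water from root to leaf in the xylem and sugars out of the leaf in the phloem, and it holds living cells that store starch and water. In a whole-organ library a transcript rises when each cell makes more of it or when the cells that make it become a larger part of the tissue, and these cannot be told apart here. The files pair no identifier with a gene name, so functions of the members are unknown, organ labels could not be checked against marker genes, and all but 2 are given by their rank in the score.

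The members took a small part of each library. Their summed level was 6687, 6298 and 4552 CPM in arid stems 1, 2 and 3, against 1040, 1195 and 1198 CPM in humid stems 1, 2 and 3. This is 0.585 ± 0.114% of the reads in arid stems and 0.114 ± 0.00904% in humid stems (SD, n = 3 each). The 100 transcripts left out for their gain took 10.3 ± 1.39% in arid stems and 2.18 ± 0.213% in humid stems. Mean levels of single members in arid stems ranged from 0.853 to 222 CPM with a median of 19.97 CPM. Of the 150, 2 averaged below 1 CPM there, 47 from 1 to below 10, 84 from 10 to below 100, and 17 at 100 CPM or more.

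The median member stood at 19.0, 20.4 and 11.5 CPM in arid stems 1, 2 and 3, against 2.13, 2.61 and 3.16 CPM in humid stems 1, 2 and 3. The median of the 29330 ranked transcripts was 6.51 to 7.42 CPM in arid stems and 9.33 to 9.96 CPM in humid stems. In arid stems the median member thus lay above the median transcript, and in humid stems below it. The members are therefore modest only in their share of the reads and beside the 100 transcripts left out for their gain, not beside the median transcript. All 150 members had reads in every arid stem, while 123 to 128 had reads in a humid stem. No humid stem library held a read of 10 members. A count of 0 allows up to 0.491, 0.233 and 0.296 CPM in humid stems 1, 2 and 3, taking 3 counts as the limit and covering counting error only.

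**Figure D1:**
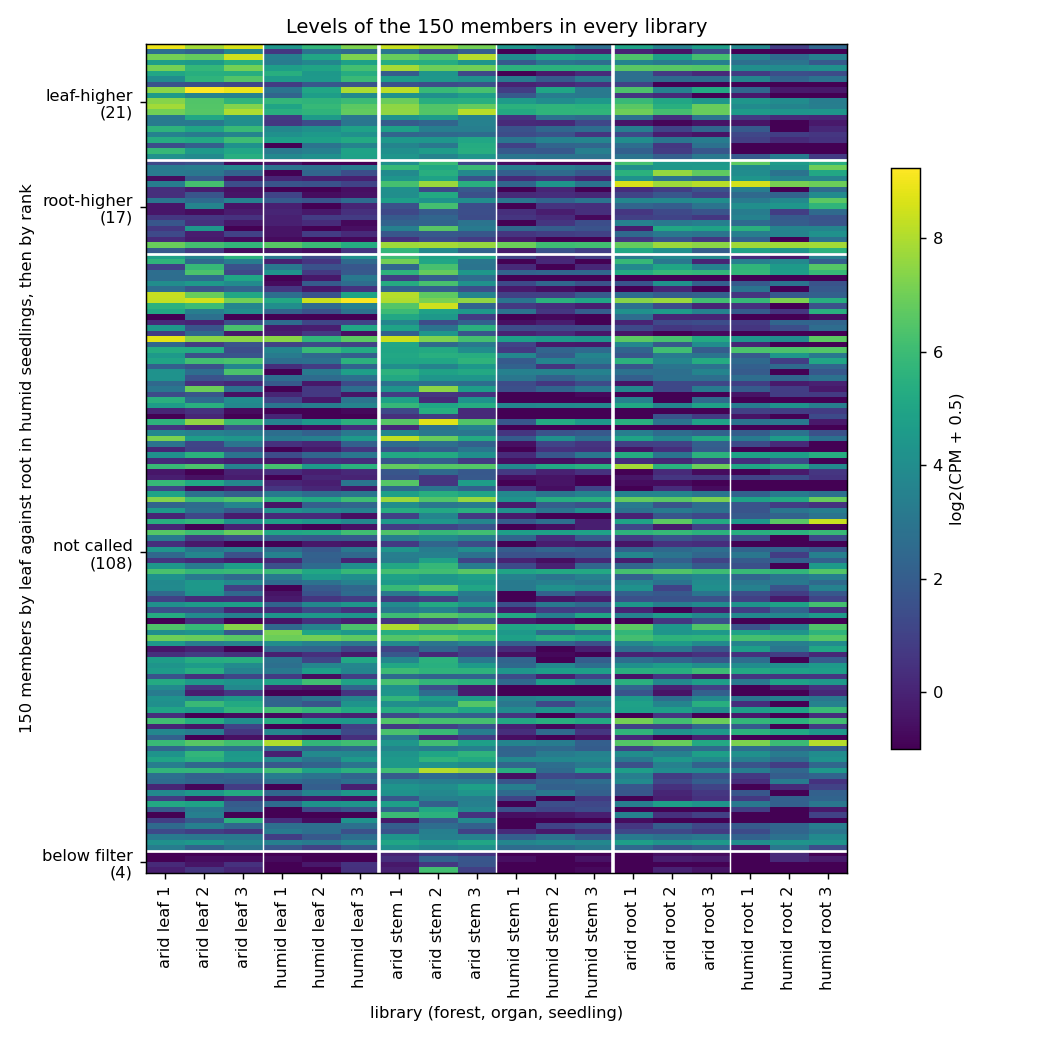
Level of each of the 150 members (rows) in each of the 18 libraries (columns, arid left of humid within an organ), as log2(CPM + 0.5). Rows are grouped by the edgeR call between leaf and root in humid seedlings, 21 higher in leaf, 17 higher in root and 108 not called, with 4 below the filter on low counts; white lines part the groups.

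The members ranked 148, 149 and 150 scored 0.627, 0.627 and 0.620, and the transcripts ranked 151, 152 and 153, just outside, scored 0.619, 0.616 and 0.616. At rank 148 the lowest arid stem had 22.9 CPM against 14.6 CPM in the highest humid stem, and at rank 151 the values were 11.3 and 7.20 CPM. The edge of the list therefore falls among transcripts with much the same gap. Of the 29330 ranked transcripts, 757 (2.58%) had all arid stems above all humid stems. The exclusions removed 44 transcripts of the largest gain that scored above the last member, and 19 others that were higher in both leaf and root.

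Ag_44608 had the highest score, 3.82. Its level was 65.1, 29.6 and 33.3 CPM in arid stems 1, 2 and 3, against 1.64, 0.623 and 1.38 CPM in humid stems 1, 2 and 3. The lowest arid stem lay far above the highest humid stem. In leaves it had 28.6, 10.95 and 46.4 CPM in arid libraries 1, 2 and 3, and 7.57, 1.96 and 16.5 CPM in humid libraries 1, 2 and 3. Arid leaf 2 lay below humid leaf 3, so the leaf groups overlapped. In roots it had 9.02, 13.4 and 13.2 CPM in arid libraries, and 0.774, 0.326 and 10.3 CPM in humid libraries. Humid root 3 lay within the range of the arid roots and the other humid roots lay far below it. The log2 fold change, arid over humid, was 1.71 (SE 0.88) in leaf and 1.60 (SE 0.90) in root. The difference of leaf over root of Ag_44608 missed the threshold of edgeR in the arid forest (log2 fold change 1.39, SE 0.87, adjusted p = 0.45) or in the humid forest (1.28, SE 0.90, adjusted p = 0.41). Without humid root 3 the humid value was 4.02 (SE 0.94, edgeR adjusted p = 0.020), so this library set the call.

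Ag_13811, ranked 3, had the highest mean level of all members in arid stems. It had 324, 210 and 133 CPM in arid stems 1, 2 and 3, against 19.0, 14.3 and 6.03 CPM in humid stems 1, 2 and 3. In leaves it had 506, 225 and 395 CPM in arid libraries, and 20.5, 52.9 and 147 CPM in humid libraries. The arid leaves all lay above the humid ones, with a log2 fold change of 2.38 (SE 0.71). In roots it had only 29.6, 10.5 and 25.6 CPM in arid libraries, and 12.5, 1.31 and 4.68 CPM in humid libraries, and these ranges overlapped. Ag_13811 was higher in leaf than in root in the arid forest (log2 fold change 4.22, SE 0.77, edgeR adjusted p = 0.0103) and in the humid forest (3.64, SE 0.76, edgeR adjusted p = 0.0054). All 3 leaf libraries lay above all 3 root libraries in each forest. Without arid root 2 the arid value was 3.91 (SE 0.88, edgeR adjusted p = 0.058).

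**Figure D2:**
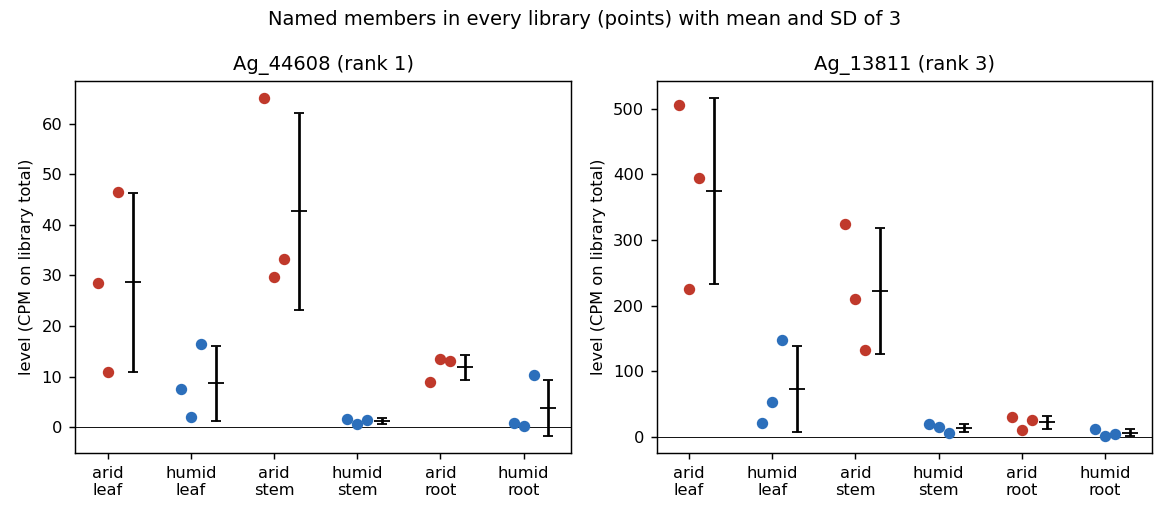
Level of Ag_44608 and Ag_13811 (CPM on the library total) in each of the 18 libraries, red for arid and blue for humid, with the mean and SD of each group of 3 in black. Stems separate by forest for both, as the rule chose, and Ag_13811 is low in roots of both forests.

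Members that the edgeR test covered numbered 146, since 4 did not pass the filter on low counts. Between arid and humid stems 47 of the 146 were called higher at an adjusted p under 0.05, against 0.575% of all 40897 tested transcripts. The rule used this contrast, so nothing is read from the count. The count moved with single libraries, being 9, 72 and 18 without arid stem 1, 2 or 3. Without humid stem 1, 2 or 3 it was 1, 4 and 1. Calls over all tested transcripts, in either direction, moved likewise. They went from 565 to 92, 3611 and 171 without arid stem 1, 2 or 3, and to 40, 62 and 32 without humid stem 1, 2 or 3. Leaving out arid root 3 gave 30 members and leaving out humid root 1 gave 31, against 263 and 303 of all. In these fits 43317 and 43137 transcripts passed the filter.

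The rule did not compare leaf with root, although its exclusion used the forest difference in these libraries. Leaf against root shows where the members are otherwise found. In humid seedlings 21 of the 146 tested members (14.4%) were higher in leaf than in root by edgeR, where 7.69% of all tested transcripts were. Another 17 (11.6%) were lower in leaf than in root, against 4.25% of all tested transcripts. The other 108 were not called. All members carry the prefix Ag_, while all tested transcripts also include those without it. The filter counted all 6 groups, arid stems included. With only humid leaves and roots in the filter and fit, 109 members were tested. Of these 14 were higher and 15 lower in leaf, and 24 of these calls were among the 21 and 17 above. That fit called 5267 of 31228 tested transcripts in both directions together, so no share by direction stands beside the 14 and 15. With all groups in the fit, the total of 38 was 19 without humid leaf 3 and 23 without humid root 3. Calls over all tested transcripts went from 4886 to 2780 and 2868. In arid seedlings 17 members (11.6%) were higher in leaf than in root, against 1.91% of all, and 4 (2.74%) were lower in leaf, against 1.61% of all.

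With the seedling fitted as a block the arid forest gave 34 calls, 26 higher and 8 lower in leaf, and the 21 of the fit without it were among them. This fit called 6.58% of all tested transcripts. In the humid forest it gave 47 calls, 34 of them among the 38, and called 14.5% of all. Without arid leaf 2, arid leaf 3, arid root 2 or arid root 3 the total of 21 was 13, 9, 3 and 5. In the same fits, calls over all tested transcripts went from 1438 to 566, 243, 276 and 323. The labels give each barcode to 3 libraries. Should every sequencing pool have held a single organ, pool and organ cannot be told apart in these contrasts.

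The 38 members called between leaf and root in humid seedlings had the same order in arid seedlings. All 21 members called higher in humid leaf had a positive log2 fold change, leaf over root, in arid seedlings, with a median of 2.33 against 3.87 in humid seedlings. The humid median is 3.85 when 4 members with no read in humid roots are set to a limit of 3 counts over the group. Of the 21, 10 were also called in arid seedlings, which is 47.6% of the 21 and 58.8% of the 17 arid calls. All 17 members called higher in humid root had a negative log2 fold change in arid seedlings, with a median of -2.09 against -4.09 in humid seedlings. Of these, 3 were also called, which is 17.6% of the 17 and 75% of the 4 arid calls. Among all tested transcripts, the sign was the same for 94.9% of the 3146 called higher in humid leaf and for 94.3% of the 1740 called higher in humid root. Of these, 615 (19.5%) and 411 (23.6%) were also called with the same sign in arid seedlings. A kept order was thus common to called transcripts and is not particular to the members. Over all 146 tested members it was the same for 109 (74.7%), against 69.2% of all tested transcripts, and the other 37 were all among the 108 not called. The arid libraries took no part in choosing the 21 and 17 members by organ, although they entered the estimate of the spread.

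**Figure D3:**
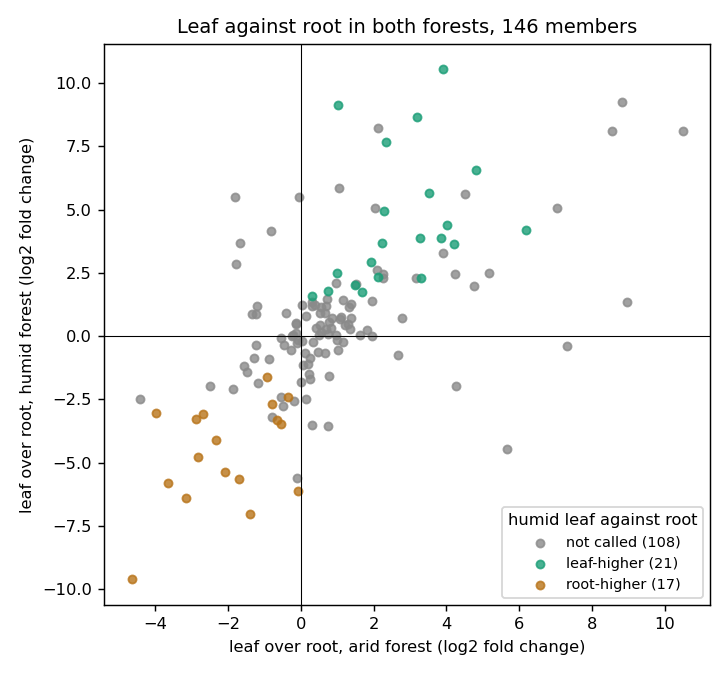
Log2 fold change of leaf over root in the arid (x axis) and humid (y axis) forest for the 146 tested members, coloured by the edgeR call in humid seedlings. The 21 members called higher in humid leaf lie right of 0 and the 17 called higher in humid root lie left of 0 in the arid forest.

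The 17 root-higher members had low levels in humid stems and unequal levels in arid stems, of which 1 lay above, 1 within and 1 below the root libraries in the median. The rule selected low humid and high arid stem levels. Their median was 16.2, 28.9 and 3.12 CPM in arid stems 1, 2 and 3, against 0.818, 1.01 and 1.38 CPM in humid stems 1, 2 and 3. In roots it was 10.9, 8.23 and 7.12 CPM in arid libraries, and 14.3, 11.4 and 17.3 CPM in humid libraries. In leaves it was 1.89, 2.74 and 0.298 CPM in arid libraries, and 0.439, 0.420 and 0.675 CPM in humid libraries. For 13 of the 17, the mean level in arid stems fell within the range of the 3 humid roots. For 1 it was above and for 3 below that range. Without arid stem 2 the count within the range was 8.

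The arid stems were unequal for these members. Arid stem 2 was the highest of the 3 for 12 of the 17, and arid stem 3 was the lowest for 12. Transcripts typical of roots moved in the same order. This set holds 71 transcripts, 2 of them members, whose mean humid root level was 50 CPM or more and exceeded both other humid organs by 20-fold or more, with 0.1 CPM added. Their summed level was 704, 5374 and 169 CPM in arid stems 1, 2 and 3, against 182, 255 and 174 CPM in humid stems 1, 2 and 3. Between 19 and 28 of the 71 had no read in an arid stem, and between 15 and 25 in a humid stem. Their part in the result was not tested. In arid stem 3 their sum lay below all humid stems. As a percent of the root of the same seedling, the median transcript stood at 18.8%, 23.9% and 12.6% in arid stems 1, 2 and 3. In humid stems 1, 2 and 3 it stood at 1.32%, 2.22% and 0.80%. The sum in arid roots 1, 2 and 3 was 2092, 5482 and 2122 CPM, below all humid roots, and lower roots raise this percent.

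The member ranked 7 had the best score of the root-higher members. It had 17.0, 61.4 and 1.92 CPM in arid stems 1, 2 and 3, against 0.164, 0 and 0 CPM in humid stems, where a single read was counted. Its roots held 72.8, 22.1 and 21.0 CPM in arid libraries, and 102, 24.1 and 43.4 CPM in humid libraries. Root levels of the forests overlapped widely, while the rule had chosen members whose stem groups did not overlap. The member ranked 41 showed the same order at a higher level, with 74.2, 207 and 43.7 CPM in arid stems, against 4.75, 19.0 and 7.01 CPM in humid stems. Its roots had 396, 210 and 282 CPM in arid libraries, and 368, 139 and 123 CPM in humid libraries. The member ranked 140 had the highest mean in arid stems of the 17, with 215, 232 and 193 CPM in arid stems, against 123, 66.5 and 69.6 CPM in humid stems. Its humid roots had 218, 217 and 227 CPM, close to the arid stems. These 3 members were picked after their values were seen.

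The 21 leaf-higher members were present in humid stems and stood higher in arid stems, nearer to the leaf. Their median was 21.2, 21.6 and 26.2 CPM in arid stems 1, 2 and 3, against 3.27, 6.93 and 6.72 CPM in humid stems 1, 2 and 3. In leaves it was 33.0, 33.9 and 42.7 CPM in arid libraries, and 12.7, 22.1 and 28.9 CPM in humid libraries. Level in the leaf as a percent of the stem of the same seedling, with 0.5 CPM added to each, had a median of 119%, 135% and 150% in arid seedlings and 174%, 265% and 357% in humid seedlings. The rule lifts arid stems and lowers humid stems, so this shift follows from the choice. Arid stem 2 was the highest arid stem for 2 of the 21 and the lowest for 13.

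Transcripts typical of leaves numbered 230, of which 1 was a member. They were set by a mean humid leaf level of 50 CPM or more that exceeded the humid root level by 20-fold or more. Their summed level was 57102, 34445 and 60756 CPM in arid stems 1, 2 and 3, against 12091, 23914 and 23326 CPM in humid stems 1, 2 and 3. All arid stems lay above all humid stems in this sum, with arid stem 2 the lowest arid one. This did not hold for the median transcript as a percent of the leaf of the same seedling. That was 70.7%, 20.1% and 38.7% in arid stems 1, 2 and 3, against 30.6%, 38.2% and 30.3% in humid stems 1, 2 and 3. By this measure arid stem 2 lay below all humid stems. Between 4 and 10 of the 230 had no read in an arid stem, and between 6 and 9 in a humid stem. Their part in the levels of the leaf-higher members was not tested.

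Among the leaf-higher members, the one ranked 21 had 114, 81.5 and 271 CPM in arid stems 1, 2 and 3, against 15.1, 30.3 and 26.2 CPM in humid stems. Its leaves had 135, 113 and 362 CPM in arid libraries, and 10.2, 32.7 and 148 CPM in humid libraries. In both organs arid seedling 3 had the highest level. The member ranked 81 had 290, 58.7 and 75.6 CPM in arid stems, against 1.31, 32.0 and 8.40 CPM in humid stems. Its arid leaves, at 174, 601 and 485 CPM, were ordered otherwise, with seedling 1 the lowest. These 2 were also picked after their values were seen.

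The 108 members that were not called between leaf and root in humid seedlings made up most of the list. Their median was 19.5, 20.3 and 12.4 CPM in arid stems 1, 2 and 3, against 2.13, 2.41 and 3.16 CPM in humid stems 1, 2 and 3. In leaves it was 13.5, 7.93 and 6.63 CPM in arid libraries, and 4.28, 3.50 and 6.31 CPM in humid libraries. In roots it was 6.10, 4.86 and 4.77 CPM in arid libraries, and 3.21, 3.92 and 4.45 CPM in humid libraries. The stem had the highest mean of the organs for 79 of the 108 in arid seedlings and for 21 in humid seedlings, in which a leaf mean was highest for 46 and a root mean for 41. The choice by stem level favours this change of order. Ranked transcripts went the other way, with the stem highest for 23.9% in arid and 41.6% in humid seedlings. In humid seedlings the leaf was highest for 27.9% of them and the root for 30.5%.

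Arid stems also differed from each other over the whole list. The highest arid stem exceeded the lowest by a median of 2.34-fold, with 0.5 CPM added to each. The ratio was above 2-fold for 86 members (57.3%), above 4-fold for 47 (31.3%) and above 10-fold for 20 (13.3%). For all ranked transcripts these shares were 60.2%, 22.9% and 6.57%. Arid stems 1, 2 and 3 were the highest for 58, 61 and 31 members and the lowest for 38, 47 and 65. As the highest this is 38.7%, 40.7% and 20.7% of members, against 37.0%, 35.0% and 28.03% of ranked transcripts. As the lowest it is 25.3%, 31.3% and 43.3% of members, against 36.5%, 37.8% and 25.7% of ranked transcripts. The widest spread was that of the member ranked 150, with 0.420, 69.8 and 1.44 CPM in arid stems 1, 2 and 3, against 0, 0 and 0.0988 CPM in humid stems. A single library can thus carry most of a member's reads while the lowest arid stem sets its rank.

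Whether the seedling with the highest stem level also led in the other organs was counted within each forest. Among arid seedlings, leaf and stem shared their highest seedling in 84 of 149 members with reads (56.4%), against 47.4% of ranked transcripts. Root and stem did so in 72 of 144 (50%), against 43.1%. Among humid seedlings the shares were 53 of 138 (38.4%) for leaf and 43 of 127 (33.9%) for root, against 42.9% and 41.5% of ranked transcripts. The shares of the members were above those of the ranked transcripts in arid seedlings and below them in humid seedlings. Nothing is read from this contrast, since the rule used the stem levels that set the highest seedling. The rule also favoured low humid stems, where 31 to 48 members had at most 3 counts. Counting error can therefore decide which humid stem is the highest for such members. Ties went to the lower number, and members of 1 library share its depth, so these shares are a description.

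The forest difference outside the stem was measured in the same model. The rule used these contrasts in part, by removing transcripts higher in both leaf and root, so the counts are a description and nothing is read from them. In leaves none of the 146 members was called by edgeR, higher (0% of all tested transcripts) or lower (0%). An unadjusted p under 0.05 was found for 36 members, and for 6.6% of all tested transcripts. DESeq2 called 5 members, of which 4 were higher and 1 was lower in arid leaves, and 0.797% of all. The median log2 fold change of the members was 1.03, against 0.04 for all tested transcripts, and 123 of 146 were above 0. All arid leaves lay above all humid leaves for 25 of the 150 members (16.7%), against 3.83% of ranked transcripts. All arid leaves lay below for 4 members, against 8.4%.

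In roots 6 of the 146 members were called higher in the arid forest, against 1.37% of all tested transcripts, and 0 were called lower, against 0.249%. An unadjusted p under 0.05 was found for 42 members, and for 15.5% of all. DESeq2 called 21 members, of which 15 were higher and 6 lower in arid roots, and 5.71% of all. Leaving out arid root 1 turned the count of 6 into 3, and leaving out humid root 3 turned it into 0. Over all tested transcripts, 662 edgeR calls in either direction became 90 and 1. The median log2 fold change was 0.57, against 0.05 for all tested transcripts, and 94 of 146 were above 0. All arid roots lay above all humid roots for 26 of the 150 members (17.3%), against 10.7% of ranked transcripts. They lay below for 12 members (8%), against 12%. The 26 comprised 11 of the 21 leaf-higher, 2 of the 17 root-higher and 13 of the 108 other tested members. The median log2 fold change in root was 2.31 for the leaf-higher members (1.89 with 4 members set to the limit of 3 counts) and -0.87 for the root-higher ones. Humid roots had chosen both classes, which favours these directions. No share over all transcripts of the same class stands beside the split of the 26, so nothing is read from it. The 71 root-typical transcripts summed to 2092, 5482 and 2122 CPM in arid roots 1, 2 and 3, against 12519, 11493 and 16598 CPM in humid roots 1, 2 and 3, below them in every arid root. Between 10 and 13 had no read in an arid root, and between 1 and 3 in a humid root. Their part in the levels of the root-higher members was not tested.

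**Figure D4:**
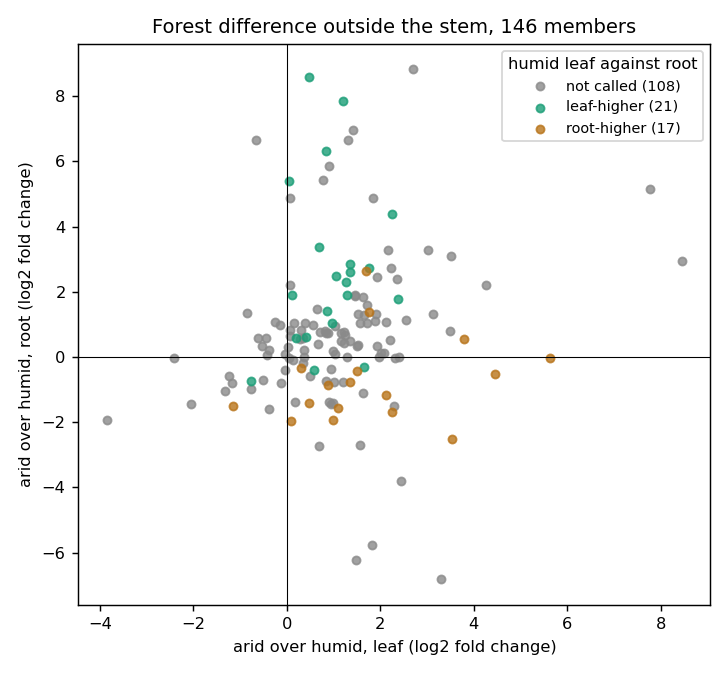
Log2 fold change of arid over humid in leaf (x axis) and in root (y axis) for the 146 tested members, coloured by the edgeR call between leaf and root in humid seedlings. Points right of 0 on the x axis number 123, and points above 0 on the y axis number 94.

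Of the 6 members called in roots, 5 were among the 21 leaf-higher ones. The choice of this class on humid roots favours this too, and nothing is read from it. The member ranked 28 was the most even, with 97.2, 95.8 and 89.4 CPM in arid roots 1, 2 and 3, against 15.9, 15.01 and 16.9 CPM in humid roots 1, 2 and 3. The groups lay far apart, with a log2 fold change of 2.62 (SE 0.39). In stems it had 229, 121 and 128 CPM in arid libraries, and 46.8, 45.9 and 47.2 CPM in humid libraries. In leaves it had 135, 54.1 and 136 CPM in arid libraries, and 26.4, 31.3 and 71.1 CPM in humid libraries, where arid leaf 2 lay below humid leaf 3. The member ranked 126 had 15.5, 7.41 and 9.31 CPM in arid roots, against 1.44, 0.653 and 0.905 CPM in humid roots. Both were picked from the 6 after their values were seen.

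The sum of leaf-typical transcripts was higher in every arid root than in every humid root. The 230 summed to 30053, 2087 and 12921 CPM in arid roots 1, 2 and 3, against 776, 794 and 649 CPM in humid roots 1, 2 and 3. Between 3 and 26 of them had no read in an arid root, and between 40 and 84 in a humid root. Arid root 2 had the lowest sum of the arid roots. The member ranked 126 was also lowest there, while the member ranked 28 was lowest in arid root 3. The part of these transcripts in the root differences was not tested.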

How the data were processed

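The authors deposited whole-number read counts per transcript without normalization, and the single-library files repeat the values of the joint table. The table is named for raw counts of uniquely mapped reads. Bowtie 0.12.2 and edgeR are listed per the submitters' processing notes, with no role given. What the reads were mapped to is not given in the sources used here; near-identical transcripts may share or lose reads. Libraries were made from 0.5 µg of total RNA, per the labels' protocols. Replicate counts differed by more than sampling noise (chi-square per degree of freedom of at least 18.3).

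CPM is the count over the column total. edgeR 4.0.16 under R 4.3.3 was run on the counts with its quasi-likelihood test and trimmed mean of M-values (TMM) scaling. Low transcripts were removed by group (minimum count 10, minimum total 15). All 18 libraries entered 1 model of 6 groups, with 12 residual degrees of freedom. P-values were adjusted by Benjamini-Hochberg over 40897 transcripts, and calls were made under 0.05. The procedure was tested on simulated counts. TMM factors were 0.787 to 0.981 in arid stems and 1.17 to 1.23 in humid stems, so scaled CPM would set the stems further apart.

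Seedlings were paired across organs by the number in the labels and the design text. Deviations from the group means of leaf and root correlated across transcripts with r from -0.071 to 0.252 in the 6 seedlings, over 0.1 in 4. The same number in the other forest marks another seedling. Within an organ, r between such libraries ranged from -0.255 to 0.389, over 0.1 in 2 of 9 pairs. The correlations therefore do not settle the pairing. Members, lists and tests were chosen with earlier results of these data known. Members named by identifier are the best score among those that passed the filter and the highest mean level in arid stems. DESeq2 1.42.0, other scalings, no filter, fewer samples, blocks and other membership rules were tried as alternatives. Plots used matplotlib 3.10.9 under Python 3.11.15.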

Additional observations from a re-analysis of the deposited data

Results flagged for a closer look

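Some members moved one way in the stem and the opposite way in another organ, with no overlap between forests in either. The difference between organs was not tested, since the rule fixed the stem direction. In leaves this held for 4 members, of which edgeR called 0 between forests. The 4 are 2.67% of the members, and all arid leaves lay below all humid leaves for 8.4% of ranked transcripts. The rule used the leaf contrast in part, so nothing is read from these shares. At rank 93, the lowest of them, the level was 0.269, 0.446 and 0 CPM in arid leaves 1, 2 and 3, against 4.83, 4.62 and 1.60 CPM in humid leaves 1, 2 and 3. The leaf log2 fold change was -3.85 (SE 1.05). Its arid stems had 1.54, 4.59 and 1.86 CPM, against 0.655, 0 and 0.395 CPM in humid stems, from 0 to 4 reads a library.

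In roots the opposite direction held for 12 members, 5 of them root-higher and 0 leaf-higher, and edgeR called 0 of the 12 between forests. The 12 are 8% of the members, against 12% of ranked transcripts with all arid roots below all humid roots. Choosing root-higher members on humid roots favours this. Lowest was the member of rank 37, with 0 reads in every arid root, against 13, 4 and 8 reads in humid roots 1, 2 and 3. Its level was at least 15.7-fold lower in arid roots, taking 3 counts over the group as the limit. The fitted log2 fold change of -6.82 depends on the prior count. In stems it had 1.82, 41.7 and 0.659 CPM in arid libraries and no read in humid ones. At rank 146 arid leaves and arid roots both lay below the humid ones.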

How the results depend on the processing

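Counts are of members called at an adjusted p under 0.05. DESeq2 called 129 in stems (47 by edgeR), 5 in leaves (0), 21 in roots (6) and 40 between leaf and root in the arid forest (21). Over all tested transcripts DESeq2 called 3833 in stems (565 by edgeR) and 3945 between leaf and root in the arid forest (1438). With only the compared groups in the fit, edgeR called 2 of 137 tested members in stems. Between leaf and root in the arid forest it called 10 of 129. Over all transcripts tested in those fits it called 23 and 641. A replicate block by seedling gave 47 calls between leaf and root in the humid forest (38 without it). In the arid forest it gave 34 (21 without it), and of the 2 only this count moved by over 1.5 times. The number as a replicate block gave 48, 0 and 7 calls in stems, leaves and roots. Without single libraries the counts ranged from 1 to 72 in stems, 0 to 0 in leaves, 0 to 8 in roots, 19 to 42 between leaf and root in the humid forest and 3 to 22 in the arid forest. Other scalings and no filter kept every count within 1.5 times.

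The list itself depends on single stems. Of the 150 members, 48 to 95 were also chosen without 1 stem library, 27 by the ratio of group means, and 122 to 139 by the other rules. The count of 13 root-higher members within the humid root range was 8 to 13 without 1 arid stem, an alternative chosen after seeing the data. The causes were not tested. For the named members no alternative changed the sign of a fold change. Reads limit low members: 31 to 48 of the 150 had at most 3 counts in a humid stem.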

Other observations

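Of the 4 members below the filter on low counts, ranked 61, 82, 142 and 150, each had at most 2 reads in a humid stem. The member ranked 61 had 7, 14 and 15 reads in arid stems 1, 2 and 3, against 0 reads in humid stems, and no read in any leaf. Its roots held 0, 3 and 1 reads in arid libraries and 0, 2 and 0 reads in humid libraries. The member ranked 142 had 4, 13 and 46 reads in arid stems, against 0 in humid stems and 0 in all roots, while humid leaf 3 held 22 reads. No member lacked reads in all humid libraries together, and 3 of the 150 lacked reads in all roots.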
